A study of Homo sapiens with 6 samples.

Results

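The serine/arginine-rich (SR) proteins and the heterogeneous nuclear ribonucleoproteins (hnRNPs) are the 2 large families of RNA-binding proteins that steer splice site choice. They were followed here in A375, an established human melanoma cell line, after silencing of fumarylacetoacetate hydrolase (FAH), the last enzyme of tyrosine breakdown. Members were taken by name from the array annotation: every gene whose symbol was SRSF with a number, and every gene whose symbol began with HNRNP, read by a probe set that carried that symbol alone. Of the 18372 genes tested, 12 were SR genes and 20 were hnRNP genes, 32 in all. The control group held 3 arrays of A375 cells transfected with negative control siRNA, and the siFAH group held 3 arrays of A375 cells transfected with siRNA against FAH, all at 72 h. The groups share the cell line and the transfection, and each array read 1 of 3 biological replicates of a single line.

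SR proteins carry RNA recognition motifs (RRMs) and a tail rich in alternating arginine and serine. They bind mostly exonic enhancers, recruit the U1 and U2 particles to nearby splice sites, and are switched by SRPK and CLK kinases that phosphorylate the tail. The hnRNPs coat nascent transcripts and often act as the counterweight of SR proteins, repressing exons or splice sites, and several also act in mRNA export, stability and translation. Both families control their own mRNA levels in many cells through poison exons, whose inclusion sends the transcript to nonsense-mediated decay (NMD).

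FAH itself read 5.48, 5.59 and 5.68 on the log2 scale with control siRNA and 4.92, 4.60 and 4.92 with siFAH. The silenced gene was thus lower in each siFAH array, by -0.77 on the log2 scale (adjusted p = 0.00213, standard error 0.10) in limma, a linear model fitted across all genes. Array medians lay between 4.92 and 5.04, and arrays correlated at 0.995 to 0.997 within groups and at 0.988 to 0.995 between them. Of 9 measured markers of melanoma lines 7 differed by less than 0, and 1 was called, AXL, a receptor kinase of dedifferentiated melanoma cells, which was lower (-0.55, adjusted p = 0.00425). SOX10, a neural crest factor, had a mean of 8.56 in controls and 8.36 in siFAH cells, and the pigment gene MLANA had 2.90 and 3.16. Levels of different probe sets cannot be set against each other, so these values do not test the label. The 9 measured markers of other cell types had control means from 2.32 (PTPRC, a pan-leukocyte marker) to 6.04 (LYZ, a lysozyme), and 1 of the 9 was called, LYZ, which was lower (-0.51, adjusted p = 0.0147). Their part in the results was not tested. Genes with an adjusted p under 0.05 over the whole table count as called, and 9.86% of all genes were called, 6.38% lower and 3.48% higher. In bulk RNA, fewer cells of a type and less RNA per cell cannot be told apart.

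The promoters of 3 members are printed first. SRSF4 and HNRNPAB were called lower after FAH silencing. SRSF6 was not called, but its siFAH arrays all lay above its control arrays. SRSF2, the member with the largest change, had no promoter entry. Each sequence is the 250 bases before the annotated start in RefSeq (build GRCh38.p14), written on the gene's strand, and capitals mark matches on either strand to the motifs searched. SRSF4 lies on the minus strand at chr1:29181901-29182150, HNRNPAB on the plus strand at chr5:178204283-178204532 and SRSF6 on the plus strand at chr20:43457646-43457895.
SRSF4: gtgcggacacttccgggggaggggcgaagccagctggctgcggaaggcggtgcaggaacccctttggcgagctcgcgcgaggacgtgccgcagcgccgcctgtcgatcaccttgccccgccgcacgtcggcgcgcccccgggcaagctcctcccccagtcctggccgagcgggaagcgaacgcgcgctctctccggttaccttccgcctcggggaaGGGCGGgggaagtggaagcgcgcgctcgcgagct
HNRNPAB: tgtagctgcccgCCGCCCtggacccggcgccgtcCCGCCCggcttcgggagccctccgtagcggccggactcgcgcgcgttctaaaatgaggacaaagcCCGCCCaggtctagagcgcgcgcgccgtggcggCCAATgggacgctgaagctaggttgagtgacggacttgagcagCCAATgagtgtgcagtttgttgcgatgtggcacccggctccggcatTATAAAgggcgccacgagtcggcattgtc
SRSF6: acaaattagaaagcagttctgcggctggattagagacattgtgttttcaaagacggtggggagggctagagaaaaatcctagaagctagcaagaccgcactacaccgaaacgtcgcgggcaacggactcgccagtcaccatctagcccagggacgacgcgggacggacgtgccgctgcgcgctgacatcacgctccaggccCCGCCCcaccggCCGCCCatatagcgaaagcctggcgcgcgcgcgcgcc

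The SRSF4 window held 1 GC box (GGGCGG). The HNRNPAB window held 3 GC boxes, 2 CCAAT boxes (CCAAT) and 1 TATA box (TATAAA), and the SRSF6 window held 2 GC boxes. None of the 3 held the E-box CACGTG, the cAMP response element TGACGTCA or TGATGCAA, a composite motif read by ATF4 and C/EBP factors. Windows were found for 11 of the 12 SR genes and 18 of the 20 hnRNP genes, and SRSF2, HNRNPA1 and HNRNPA3P1 had no entry. Some genes have several annotated starts, which gave 14 windows for the SR genes and 29 for the hnRNP genes. A CCAAT box was in 3 of 14 SR windows (those of SRSF3 and SRSF8) and in 16 of 29 hnRNP windows, against 32% of all 35116 promoter windows. An E-box was in 0 of 14 SR windows and 5 of 29 hnRNP windows (those of HNRNPD, HNRNPDL, HNRNPH3 and HNRNPM), against 6.34%. A GC box was in 5 of 14 SR windows and 18 of 29 hnRNP windows, against 42.6%, and a TATA box in 3 of 14 and 2 of 29, against 10.7%. No member window held TGACGTCA or TGATGCAA, which were in 1.65% and 0.772% of all windows. Windows of 1 gene can overlap and are not independent. The motif letters may overlap between boxes, and a match is a description of the letters only.

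After FAH silencing 2 SR genes and 1 hnRNP gene were called, all lower, and none of either family was called higher. That is 2 of 12 SR genes (16.7%) and 1 of 20 hnRNP genes (5%), beside 6.38% of all genes called lower. At an unadjusted p under 0.05 limma had 5 of 12 SR genes and 5 of 20 hnRNP genes, all lower. Of all 18372 genes, 2816 were lower and 1992 higher at that threshold. The largest change of any member was that of SRSF2 at -0.35 on the log2 scale, a 1.27-fold decrease. Every value below is a log2 signal of a probe set, and fold changes are siFAH minus control siRNA on that scale.

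**Figure D1:**
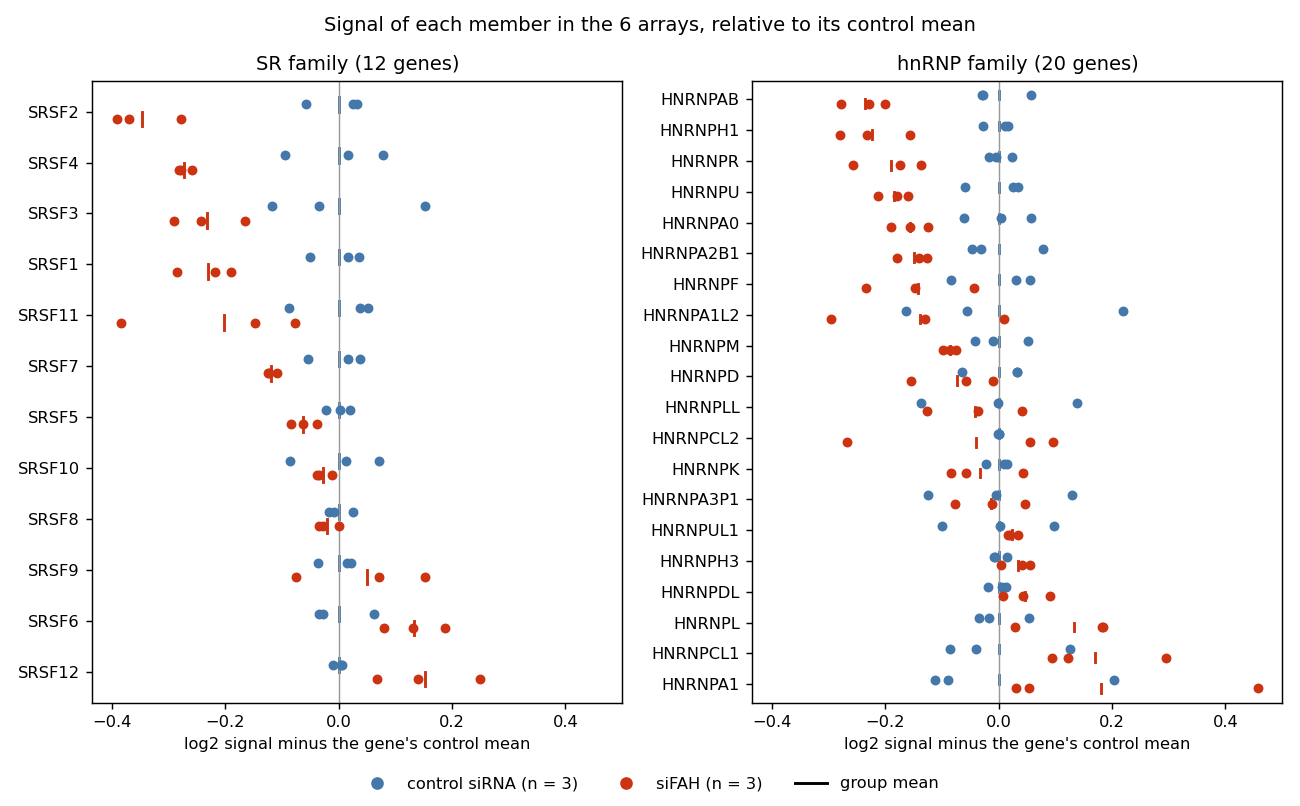
Log2 signal of each of the 12 SR genes (left) and 20 hnRNP genes (right) in the 6 arrays, shown as the difference from the gene's own control mean (horizontal axis, log2); blue points are the 3 control arrays, red points the 3 siFAH arrays, and short bars the group means. The red points lie wholly to the left of the blue ones for 6 SR and 7 hnRNP genes, and wholly to the right for SRSF6 and SRSF12.

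Among the single-RRM SR proteins, SRSF2 (SC35), which binds exonic enhancers and also helps release paused RNA polymerase II, read 8.13, 8.22 and 8.22 in controls and 7.91, 7.82 and 7.80 in siFAH cells. All 3 siFAH arrays lay below all 3 control arrays. The difference in means was -0.35 (standard error 0.07), with an adjusted p of 0.0128 from limma. SRSF2 kept its call in 3 of the 6 fits that left out 1 array, and had adjusted p values of 0.0581 without control replicate 2, 0.0538 without siFAH replicate 2 and 0.0553 without siFAH replicate 3.

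SRSF3, the smallest SR protein and an adaptor for mRNA export, read 8.78, 8.70 and 8.97 in controls and 8.57, 8.65 and 8.52 in siFAH cells. Its groups did not overlap, but the control arrays were spread by an SD of 0.14, and its change of -0.23 (standard error 0.08, adjusted p = 0.103) was not called. SRSF11, which binds other SR proteins and associates with U2AF, read 9.52, 9.65 and 9.66 in controls and 9.53, 9.46 and 9.23 in siFAH cells. The third siFAH array was the lowest and the first lay within the control range, giving -0.20 (standard error 0.09, adjusted p = 0.178). SRSF7, which carries a zinc knuckle beside its RRM and shares targets with SRSF3, had siFAH values of 7.80, 7.81 and 7.80, all below its control values of 7.87, 7.96 and 7.94, with a difference of -0.12 (adjusted p = 0.269).

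SRSF10, which is dephosphorylated on heat shock and then acts as a general repressor of splicing, differed by -0.028 (adjusted p = 0.834), and its groups overlapped. It was the only member with 2 probe sets of its own, and the dimmer one differed by 0.066 (standard error 0.066), so the probe sets disagreed in sign. SRSF8, a primate gene derived from an SRSF2 transcript, differed by -0.021 (adjusted p = 0.870). SRSF12, a relative of SRSF10, read 4.75, 4.75 and 4.74 in controls and 4.82, 4.89 and 4.997 in siFAH cells. All siFAH arrays were the higher ones, with a difference of 0.15 (standard error 0.07, adjusted p = 0.199) that was not called.

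Of the SR proteins with a pair of RRMs, SRSF4, a large member with a long arginine-serine tail, read 7.92, 8.03 and 8.09 in controls and 7.76, 7.74 and 7.73 in siFAH cells. The groups did not overlap, and the siFAH arrays lay within an SD of 0.012 of each other. SRSF4 was called lower, at -0.27 (standard error 0.07, adjusted p = 0.0355 from limma). The call held in 1 of the 6 fits that left out 1 array, the fit without control replicate 1. The others gave adjusted p values of 0.107 without control replicate 2, 0.0986 without control replicate 3, 0.0671 without siFAH replicate 1, 0.101 without siFAH replicate 2 and 0.108 without siFAH replicate 3. It was lost after quantile normalization (-0.19, adjusted p = 0.0832) and after cyclic loess (-0.18, adjusted p = 0.0996).

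SRSF1 (ASF/SF2), the founding member of the family and a known oncogene, read 10.16, 10.10 and 10.18 in controls and 9.96, 9.86 and 9.93 in siFAH cells. The groups did not overlap. The change of -0.23 (standard error 0.07, adjusted p = 0.0533) missed the threshold. It passed in 6 of 11 other settings, such as SAM (Significance Analysis of Microarrays, the study's method) with a q of 0.0317. The study also required a minimum fold change, which the 1.17-fold decrease of SRSF1 did not reach. In the 6 fits that left out 1 array SRSF1 passed in 0. SRSF5, an insulin-responsive SR protein, read 6.93, 6.91 and 6.95 in controls and 6.89, 6.87 and 6.85 in siFAH cells, which did not overlap and differed by -0.062 (adjusted p = 0.574). SRSF9, with a short arginine-serine tail, differed by 0.050 (adjusted p = 0.722) with overlapping groups. SRSF6 (SRp55) read 8.38, 8.47 and 8.38 in controls and 8.54, 8.60 and 8.49 in siFAH cells. All siFAH arrays were higher, but the difference of 0.13 (standard error 0.07, adjusted p = 0.242) was not called, with a 95% interval from -0.017 to 0.28.

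Over the 12 SR genes, 9 differences were below 0 and 3 above, from -0.35 to 0.15, with a median of -0.091 against 0.0050 for all genes. After quantile normalization 7 of 12 were below 0 with a median of -0.027 (all genes -0.022), and after cyclic loess 6 of 12 with a median of -0.015 (all genes -0.014), so that the SR median then lay close to that of all genes. The 5 with a pair of RRMs had a median of -0.062 with 1 called lower, and the 7 others had a median of -0.12 with 1 called lower. The siFAH arrays lay wholly below the control arrays for 6 of 12 SR genes, where 18.6% of all genes did so, and wholly above for 2 of 12, where 13.4% of all genes did so.

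**Figure D2:**
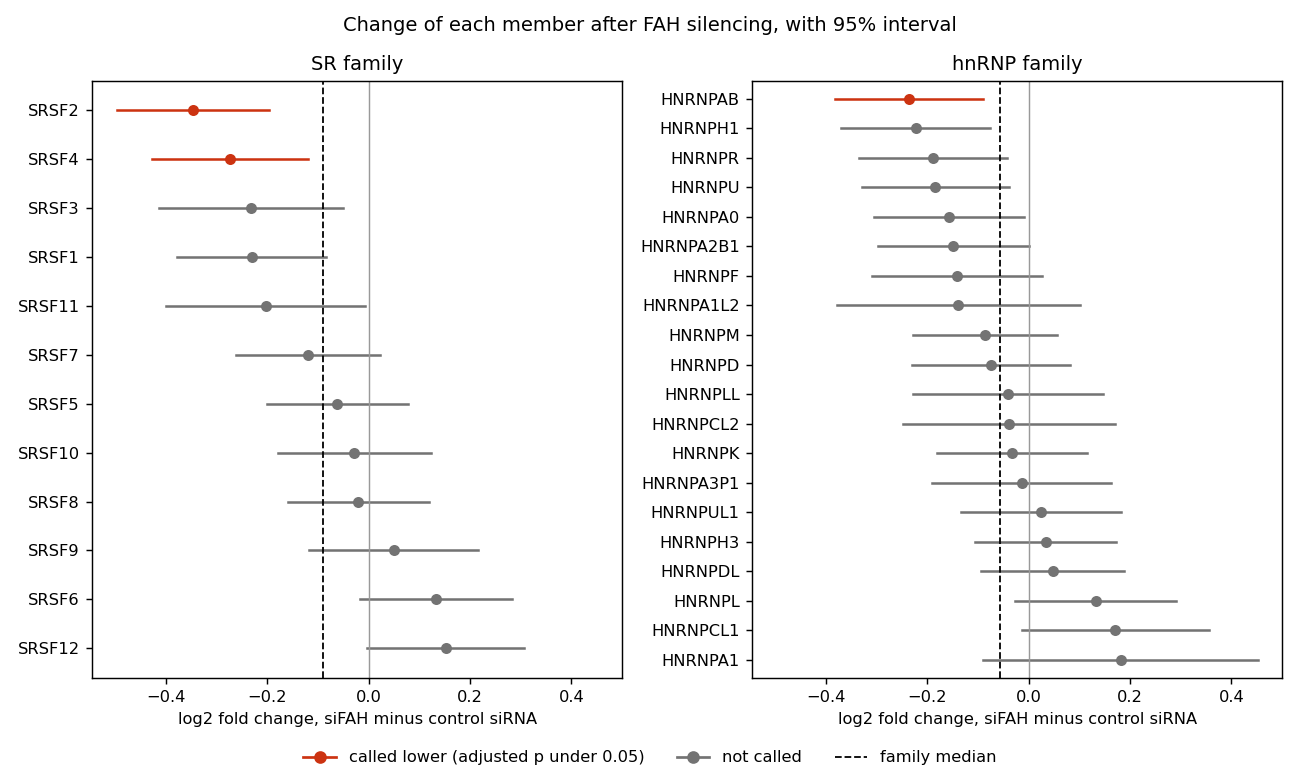
The horizontal axis gives the log2 fold change, siFAH minus control, of each SR gene (left) and hnRNP gene (right), with its 95% interval from limma as a line; red marks the 3 genes called lower, gray the genes not called, and the dashed line the family median. The medians are -0.091 for the SR family and -0.058 for the hnRNP family, and SRSF2 has the lowest value of both.

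Of the hnRNP genes, only HNRNPAB was called. HNRNPAB, a member of the A, B and D group that binds AU-rich and single-stranded nucleic acid, read 9.84, 9.83 and 9.92 in controls and 9.63, 9.58 and 9.66 in siFAH cells. The groups did not overlap. The change was -0.24 (standard error 0.07), with an adjusted p of 0.0485 from limma, close to the threshold, and the call was lost in each of the 6 fits that left out 1 array (adjusted p from 0.0692 without control replicate 1 to 0.149 without siFAH replicate 2). After cyclic loess it was -0.17 (adjusted p = 0.128).

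In the same group, HNRNPA2B1, a reader of export and sorting signals in RNA, read 10.13, 10.02 and 10.01 in controls and 9.88, 9.91 and 9.93 in siFAH cells, without overlap, and differed by -0.15 (standard error 0.07, adjusted p = 0.191). HNRNPA0, which stabilizes AU-rich mRNAs, read 7.39, 7.46 and 7.51 against 7.30, 7.27 and 7.33, also without overlap, and differed by -0.16 (adjusted p = 0.164). HNRNPD (AUF1), a decay factor of AU-rich mRNAs, differed by -0.074 (adjusted p = 0.543) and its paralog HNRNPDL by 0.047 (adjusted p = 0.688), both with overlapping groups. HNRNPA1, the classical repressor of exons bound by SRSF1, was read by a probe set matched to a single transcript accession. That probe set gave 6.07, 5.78 and 5.75 in controls and 5.92, 6.32 and 5.90 in siFAH cells. The groups overlapped, the second siFAH array stood highest, and the difference of 0.18 had the widest standard error of all members (0.12, adjusted p = 0.385). The 4 other probe sets that carry the HNRNPA1 symbol also carry those of its copies and were not assigned to it. They differed by -0.20 to -0.17 (adjusted p from 0.105 to 0.161), opposite in sign to the 1-symbol probe set, so that no direction is given for HNRNPA1.

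HNRNPH1, which binds runs of G and is the main F and H group protein, read 9.76, 9.80 and 9.81 in controls and 9.63, 9.56 and 9.51 in siFAH cells. The groups were apart, and the change of -0.22 (standard error 0.07, adjusted p = 0.0600) missed the threshold. It passed in 5 of 11 other settings, for example with the variance trend of eBayes (adjusted p = 0.0240). In the 6 fits that left out 1 array it passed in 0. HNRNPF, which binds the same G runs, differed by -0.14 (adjusted p = 0.263), its second siFAH array lying within the control range. HNRNPH3, the smallest of the group, differed by 0.033 (adjusted p = 0.780).

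HNRNPR, close to SYNCRIP, read 9.65, 9.69 and 9.66 in controls and 9.53, 9.50 and 9.41 in siFAH cells. HNRNPU, a chromatin-bound scaffold protein, read 8.31, 8.23 and 8.32 against 8.13, 8.07 and 8.11. Both were lower in all siFAH arrays without being called, at -0.19 (adjusted p = 0.0994) and -0.18 (adjusted p = 0.103). HNRNPM, an EMT-linked regulator, read 9.46, 9.43 and 9.52 against 9.37, 9.40 and 9.39, which also did not overlap, and differed by -0.087 (adjusted p = 0.432). HNRNPK, which binds C-rich runs through KH domains, differed by -0.033 (adjusted p = 0.799), with a 95% interval from -0.18 to 0.12. HNRNPL, a reader of CA repeats, read 9.27, 9.36 and 9.29 in controls and 9.33, 9.48 and 9.49 in siFAH cells. Its first siFAH array lay within the control range, and its difference was 0.13 (adjusted p = 0.272). The paralog HNRNPLL, known for CD45 splicing in T cells, differed by -0.041 (adjusted p = 0.800) and HNRNPUL1, a relative of HNRNPU that acts in the DNA damage response, by 0.023 (adjusted p = 0.869).

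The remaining 4 hnRNP symbols are gene copies: HNRNPA1L2 (-0.14, adjusted p = 0.455), HNRNPCL1 (0.17, adjusted p = 0.224), HNRNPCL2 (-0.039, adjusted p = 0.832) and the pseudogene HNRNPA3P1 (-0.014, adjusted p = 0.935). All 4 had overlapping groups. Their control means were low, at 5.35, 4.17, 3.95 and 5.72 in that order, and they are kept in the family counts and median. They are near copies of HNRNPA1, HNRNPC and HNRNPA3, so their probe sets may also read the parent transcripts. HNRNPC, HNRNPA3, HNRNPH2 and HNRNPUL2 had no probe set with a symbol of their own alone and are not among the 20.

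Over the 20 hnRNP genes, 14 differences were below 0 and 6 above, from -0.24 to 0.18, with a median of -0.058. The value of 0.18 is that of HNRNPA1, whose shared probe sets were opposite in sign. It is kept in the counts and medians given here. Without the pseudogene, the 19 protein-coding genes had a median of -0.074. By group the medians were -0.14 for the 7 A, B and D genes, -0.14 for the 3 F and H genes, -0.060 for HNRNPK, HNRNPM, HNRNPR and HNRNPCL1, -0.080 for HNRNPU and HNRNPUL1, and 0.046 for HNRNPL and HNRNPLL. The siFAH arrays lay wholly below the control arrays for 7 of 20 hnRNP genes, beside 18.6% of all genes, and wholly above for 0 of 20, beside 13.4%.

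The 2 families were then set side by side. In each array the median over a family's genes was taken of the signal minus the gene's mean over the 6 arrays. For the SR family it was 0.034, 0.0038 and 0.063 in controls and -0.045, -0.039 and -0.059 in siFAH cells. For the hnRNP family it was 0.029, -0.0023 and 0.079 in controls and -0.061, -0.027 and -0.016 in siFAH cells. The 3 siFAH arrays lay below the 3 control arrays for both families, and in both the second control array was the lowest of the controls. The SR median minus the hnRNP median was 0.0053, 0.0061 and -0.016 in controls and 0.016, -0.012 and -0.042 in siFAH cells, so that the groups overlapped in the distance between the families. This distance per array had an SD between arrays of 0.023. The median log2 fold change of the SR genes, a different measure to which that SD does not belong, was 0.033 below that of the hnRNP genes. After quantile normalization it was 0.068 above and after cyclic loess 0.012 above, so the order of the families turned with the normalization.

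**Figure D3:**
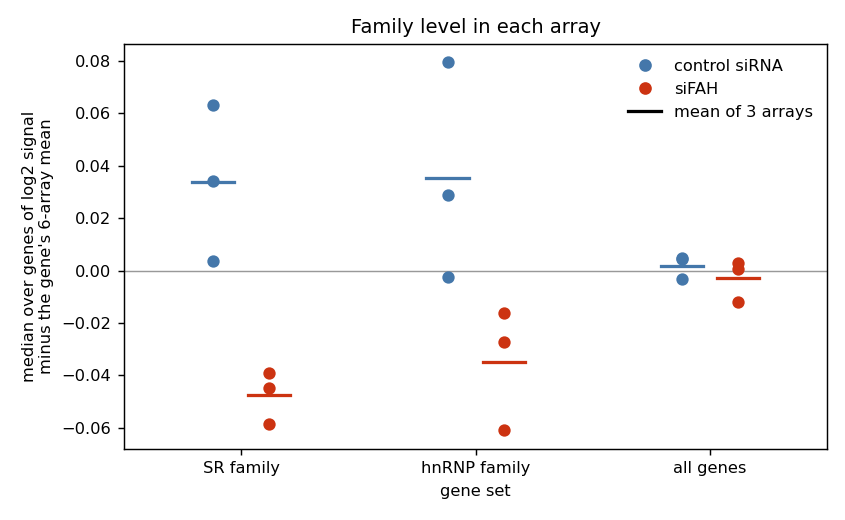
Median over the genes of the SR family, the hnRNP family and all genes (horizontal axis) of the log2 signal minus each gene's mean over the 6 arrays (vertical axis), with 1 point per array, control siRNA in blue and siFAH in red, and bars for the mean of 3 arrays. Both families lie lower in the siFAH arrays, while all genes lie between -0.012 and 0.0047.

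Most members are bright genes, and signal level moved with the change. Of the 12 SR genes 8 lay in the brightest 10% of all genes tested, and of the 20 hnRNP genes 12 did. That brightest 10% had a median log2 fold change of -0.11, with 18.9% of its genes called lower, while the dimmest 10% had a median of 0.048 with 0.326% called lower. The part of signal level in the family medians was not tested beyond the loess fit, which removes trends with signal level between arrays. Under cyclic loess, 1 of 12 SR genes (SRSF2, -0.26, adjusted p = 0.0329) and 0 of 20 hnRNP genes were called. In that fit 893 of all 18372 genes were called lower and 695 higher.

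The genes that work with these families were read from 6 lists, with 97 genes tested, of which 9 were lower and 2 were higher. These 11 of 97 stand beside 9.86% of all genes called, and the counts of the single lists below beside 6.38% of all genes called lower and 3.48% called higher. The split turned with the scaling, with 6 lower and 6 higher after quantile normalization and 4 lower and 6 higher after cyclic loess. Of all 18372 genes, 1053 were lower and 655 higher after quantile normalization. After cyclic loess 893 were lower and 695 higher. TNPO3, the importin that carries phosphorylated SR proteins into the nucleus, read 7.97, 8.08 and 8.36 in controls and 7.86, 7.70 and 7.70 in siFAH cells. It was lower in all siFAH arrays, at -0.39 (standard error 0.10, adjusted p = 0.0389 from limma). TNPO3 was the 1 gene called among 9 SR kinases and import factors. The kinases SRPK1 (-0.15, adjusted p = 0.165), SRPK2 (-0.12, adjusted p = 0.341) and CLK1 (-0.13, adjusted p = 0.311) were not called. Neither was SRPK3, which differed by 0.18 (adjusted p = 0.190) with all siFAH arrays higher. In this list 7 differences were below 0 and 2 above, with a median of -0.12.

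TRA2B, an SR-like activator of exons rich in GAA, read 9.41, 9.46 and 9.53 in controls and 9.24, 9.17 and 9.11 in siFAH cells. It was called lower, at -0.29 (standard error 0.07, adjusted p = 0.0276), the only one of 22 SR-like proteins and coactivators to be called. Its paralog TRA2A differed by 0.11 (adjusted p = 0.375). Of 14 hnRNP proteins that bear other symbols, PTBP3, a polypyrimidine tract binding protein, was called lower at -0.34 (standard error 0.07, adjusted p = 0.0162), with 6.91, 6.80 and 6.98 in controls and 6.57, 6.52 and 6.58 in siFAH cells. PTBP1 and PTBP2 had -0.17 (adjusted p = 0.157) and -0.12 (adjusted p = 0.312).

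Of 19 other splicing regulators 3 were lower. MBNL2, a muscleblind protein that shapes developmental splicing, read 7.69, 7.85 and 7.86 in controls and 7.34, 7.31 and 7.34 in siFAH cells. Its change of -0.47 (standard error 0.07, adjusted p = 0.00452) was kept in all 6 fits that left out 1 array. KHDRBS1 (Sam68), a signal-responsive regulator of exon inclusion, had -0.37 (standard error 0.09, adjusted p = 0.0260), and CELF1, a GU-rich element binder often opposed to MBNL proteins, had -0.24 (standard error 0.07, adjusted p = 0.0473). The call of CELF1 was lost in each of the 6 fits that left out 1 array.

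The snRNP and SF3 proteins, the core that the regulators act on, moved both ways. SNRPG, an Sm ring protein, read 8.62, 8.46 and 8.19 in controls and 8.75, 9.22 and 9.27 in siFAH cells. It rose by 0.66 (standard error 0.14, adjusted p = 0.0199), with the groups apart but a wide spread within each. The size depended on the probe set taken, since the mean of its probe sets rose by 0.35 (adjusted p = 0.0440). SNRPD1, another Sm protein, rose by 0.31 (standard error 0.08, adjusted p = 0.0345). SF3B3 and SF3A3, subunits of the U2 particle, fell by 0.35 (standard error 0.09, adjusted p = 0.0385) and by 0.30 (standard error 0.08, adjusted p = 0.0456) on the log2 scale. With 2 higher and 2 lower of 21 genes, the list's median was -0.061. Of 12 NMD and exon junction factors SMG1, the kinase that phosphorylates UPF1, was lower (-0.41, standard error 0.09, adjusted p = 0.0248) and UPF1 itself had -0.099 (adjusted p = 0.461). RBM8A (0.37, adjusted p = 0.0732) and MAGOH (0.27, adjusted p = 0.0671) were higher in all siFAH arrays without being called. Of the 12 differences, 7 were below 0 and 5 above. The calls of TNPO3, TRA2B, SNRPG, SF3B3 and SMG1 held in 2 of the 6 fits that left out 1 array, those of SNRPD1 and SF3A3 in 1, that of KHDRBS1 in 3 and that of PTBP3 in 4. Cyclic loess ended the calls of TNPO3 (adjusted p = 0.0668), TRA2B (0.0580), CELF1 (-0.15, 0.154), SF3B3 (0.0692) and SF3A3 (0.125). Quantile normalization ended those of TNPO3 (0.0588), CELF1 (0.119) and SF3A3 (0.0790), and centring on array medians that of SNRPD1 (0.0610). The arrays whose loss took the number of called genes in the 6 lists from 11 to 3 or fewer were control replicates 2 (3 genes) and 3 (1) and siFAH replicates 2 (1) and 3 (2). In that order, these fits called 739, 727, 711 and 657 of all 18372 genes, beside 1811 in the main fit. The loss of calls was thus not particular to the 6 lists.

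**Figure D4:**
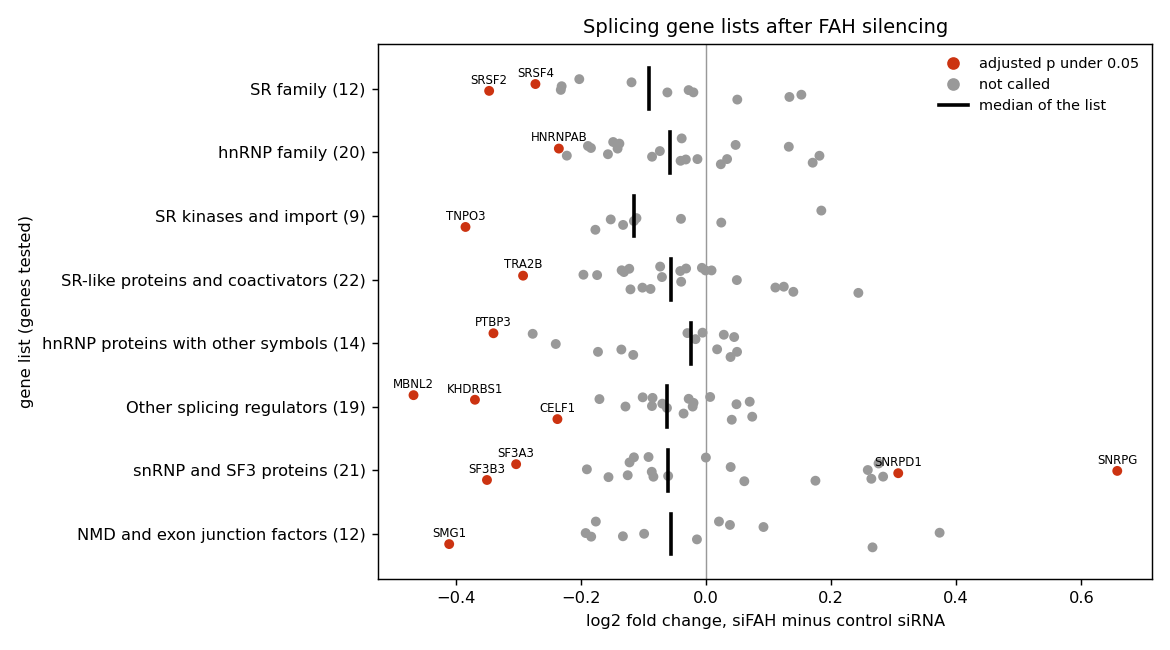
The horizontal axis gives the log2 fold change, siFAH minus control, of the genes of the SR and hnRNP families and of 6 lists of related splicing genes (vertical axis, with the number of genes tested), red where the adjusted p is under 0.05 and labelled with the gene, gray otherwise, with a black bar at each list's median. All called genes lie left of 0 except SNRPG and SNRPD1, and the list medians run from -0.12 for the SR kinases and import factors to -0.024 for hnRNP proteins with other symbols.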

How the data were processed

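RNA from A375 cells, 3 biological replicates with control siRNA and 3 with siRNA against FAH at 72 h, was hybridised to Affymetrix Human Gene 1.0 ST arrays. The authors summarised the scans with RMA and global scaling, and the deposited values are on the log2 scale, used here with no further normalization. RMA fits each probe set across all arrays and tends to compress fold changes, and the arrays' number limits the precision. Scanner files were not used here.

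Of 28829 probe sets, 19291 had 1 gene symbol, 1735 several and 7803 none. The brightest 1-symbol probe set stood for each of 18372 genes. Genes were tested with limma 3.58.1 (lmFit and eBayes, R 4.3.3) on the 6 arrays, with no covariate, and p-values were adjusted by Benjamini-Hochberg over all genes and called under 0.05. The p-values measure only the spread between these samples. SAM, the study's test, and the t-test, quantile normalization, median centring, cyclic loess, leaving out dim genes, variance trend, array weights, other handling of probe sets, a replicate block and leaving out each array were run as alternatives. The minimum fold change that the study set beside SAM was not applied. The scripts were tested on simulated data. Named genes were FAH, all members and, in each related list, up to 4 called genes with the largest changes. Their uncalled paralogs and partners, the markers and the 3 promoters shown were chosen after their values were seen. The members and lists were chosen with earlier results of these data known. Promoter windows came from RefSeq (GRCh38.p14).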

Additional observations from a re-analysis of the deposited data

How the results depend on the processing

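Both family medians stayed below 0 in all settings run, but the median of all genes moved too, to -0.022 after quantile normalization and -0.014 after cyclic loess, where the SR median was close to it. The SR median was -0.027 after quantile normalization, -0.14 with array medians centred, -0.015 after cyclic loess and -0.12 without dim genes, and -0.10 to -0.082 when 1 array was left out. The hnRNP median was -0.095 after quantile normalization, -0.027 after loess, -0.11 with medians centred, and -0.091 to -0.025 when 1 array was left out. Their difference was 0.068 after quantile normalization, 0.012 after loess, -0.062 with array weights, and -0.070 to 0.0098 when 1 array was left out. Centring moved the median of all genes to -0.049 from 0.0050 and the lower share of called genes to 80.1% from 64.7%.

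Calls among all genes were 1811 of 18372 in the main fit, 1708 after quantile normalization, 2094 with medians centred and 1588 after loess. They were 2458 of 9186 without dim genes, 2332 with the variance trend, 2913 with array weights and 2381 by SAM. The t-test called 14, the replicate block 761, and the fits without 1 array 657 to 1845. The counts that follow stand beside these totals. Without dim genes, 11 SR and 17 hnRNP genes were tested. SR genes called were 1 by loess, 4 without dim genes, 0 by the t-test, 0 with the replicate block, and 0 to 2 when 1 array was left out. The hnRNP genes called were 2 with medians centred, 0 by loess, 4 without dim genes, 3 with the variance trend, 3 with array weights, 2 by SAM, 0 by the t-test and 0 with the block, and 0 in every fit without 1 array. Related genes called were 12 after quantile normalization, 10 after loess, 20 without dim genes, 19 with the trend, 20 with weights, 0 by the t-test, 3 with the block, and 1 to 14 when 1 array was left out. FAH was -0.77 by the t-test (adjusted p = 0.118), and -0.82 to -0.66 when 1 array was left out. The labels do not say whether same-numbered arrays were paired. Deviations of same-numbered arrays from their group means correlated at -0.155, -0.089 and -0.274, and 0 of 6 arrays correlated best with their own number. With 3 arrays per group these values cannot decide how the replicates were handled.

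Members not called changed sign as follows. SRSF10 was 0.033 after quantile normalization, 0.049 after loess, 0.018 with weights, 0.019 as the mean of its probe sets and -0.071 to 0.0079 when 1 array was left out. SRSF8 was 0.036 after quantile normalization and 0.043 after loess, SRSF5 2.3e-05 and HNRNPK 0.022 after loess. With medians centred SRSF9 was -0.0045, HNRNPDL -0.0072, HNRNPH3 -0.021 and HNRNPUL1 -0.031. HNRNPLL was 0.057 with weights. When 1 array was left out, SRSF9 was -0.0019 (without siFAH replicate 2) to 0.11, HNRNPUL1 -0.026 (without control replicate 3) to 0.072 and HNRNPA3P1 -0.077 to 0.051 (without control replicate 3). HNRNPLL was 0.028 without control replicate 3 and 0.0023 without siFAH replicate 1, and HNRNPCL2 was 0.075 without siFAH replicate 1. The cause of these changes was not tested.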

Other observations

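A further 11 probe sets carried family symbols together with other symbols, and so belong to no single gene. Of these, 10 had log2 fold changes below 0, with a median of -0.11 and a range from -0.25 to 0.044, and 0 were called after adjustment over all 28829 probe sets (limma).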
